A study of Gallus gallus with 2 samples.

Results

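The 10 genes described here encode proteins that build the melanosome or move it through the cell. They were *PMEL*, *MLANA*, *GPNMB*, *TRPM1*, *OCA2*, *RAB32*, *RAB38*, *RAB27A*, *MLPH*, and *MYO5A*, chosen by their symbols from the 29558 genes of the deposited tables, and all 10 were present. They were measured by droplet-based single-cell RNA sequencing of the chicken peritoneum, in which each captured transcript carries a unique molecular identifier (UMI) so that amplified copies count once. Tissue came from female Huiyang Bearded Chickens aged 40 days, with either hyperpigmentation of the visceral peritoneum (HVP) or a normal peritoneum. For each group the peritoneum of 10 birds was pooled into 1 library, so the birds cannot be told apart, there are no replicates, and no statistical test was made. All intervals given are 95% intervals that cover counting error only.

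Before any value is read, a conflict in the labels has to be stated. The title of each library and the names of its deposited files give opposite groups. The titles were kept, and the libraries are called HVP-labelled and Normal-labelled. If the file names were right instead, each direction given between them would turn around. The libraries shared 14 barcodes, and none of them was melanocyte-like. Total depth was 36100448 UMIs over 7157 barcodes (HVP-labelled) and 26865572 UMIs over 6981 barcodes (Normal-labelled). Barcodes with more than 1000 genes, 5866 and 5464, were kept as cells.

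Melanosomes are lysosome-related organelles in which melanocytes make and store melanin. PMEL forms the amyloid fibrils on which the pigment is laid down, MLANA and the PMEL-related GPNMB are further membrane proteins of the organelle, and OCA2 is a channel-like protein that keeps its lumen from becoming too acidic. RAB32 and RAB38 are small GTPases that bring pigment enzymes to the maturing organelle. Mature melanosomes are carried on actin by a complex in which RAB27A on the melanosome binds melanophilin (MLPH), and melanophilin binds the motor myosin Va (MYO5A). In chickens, variants of *PMEL* underlie dominant white plumage and a variant of *MLPH* underlies the diluted lavender plumage.

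The genes lie on 7 chromosomes of the GRCg7b assembly, placed by symbol in its RefSeq annotation. All are annotated as protein coding. *PMEL* is the shortest, on chromosome 34 at 1339431 to 1343416, and *OCA2* the longest, on chromosome 1 at 130732056 to 130937048, a chromosome that also holds *RAB38* at 188171366 to 188206104. *MLANA* lies on chromosome Z at 28230080 to 28235275, *GPNMB* on chromosome 2 at 31030943 to 31048138, *RAB32* on chromosome 3 at 46553187 to 46575960, and *MLPH* on chromosome 7 at 4848100 to 4867111. Chromosome 10 holds *TRPM1* at 5618486 to 5749124, *RAB27A* at 8006764 to 8035433, and *MYO5A* at 8760657 to 8858383. The last pair are 725 kb apart with 12 annotated genes between them.

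Cells of each library were clustered without the 10 genes, and clusters were named from other markers. A melanocyte-like cluster stood out in both libraries, with 93 cells in the HVP-labelled library and 62 in the Normal-labelled library. Of 10 melanocyte markers outside the gene set, 7 were raised there in both libraries, namely the pigment enzyme genes *DCT*, *TYR*, and *TYRP1*, the transcription factor genes *SOX10* and *MITF*, and the receptor genes *KIT* and *EDNRB2*. The other three, *SLC45A2*, *SLC24A5*, and *GPR143*, were at or close to 0 UMIs. The median melanocyte-like cell held 3746 UMIs in the HVP-labelled library and 3391 in the Normal-labelled library. Each library had 14 classes in all, counting clusters that could not be named and are called by their leading genes. A level is a gene's UMI total in a class per 1000000 UMIs of that class, written as CPM.

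Of the 10 genes, 7 had most of their UMIs in melanocyte-like cells in both libraries, and they are called restricted here. They were the genes of the structural and membrane proteins *PMEL*, *MLANA*, *GPNMB*, *TRPM1*, and *OCA2*, the trafficking gene *RAB38*, and the adaptor gene *MLPH*, and melanocyte-like cells, 1.59% and 1.13% of all kept cells, held 57.6% to 96.5% of their UMIs. The share was 85.2% or more for 5 of them, but 72.7% and 67.9% for *RAB38* and 60.9% and 57.6% for *OCA2*. The other three, *RAB27A*, *MYO5A*, and *RAB32*, were found in many classes. A gene was called higher when its CPM in melanocyte-like cells was at least 2 times that in all other kept cells and the interval of the ratio lay above 1. By this rule 8 of the 10 genes were higher in each library, beside 9.44% of all tested genes (HVP-labelled) and 7.49% (Normal-labelled). By the rule set at the outset, a ratio of at least 2 after adding 1 UMI on each side, 9 of 10 were higher in each library, beside 29.6% and 31.7% of all genes. That rule raises the ratio of genes with few UMIs, since melanocyte-like cells held 386808 and 218660 UMIs only. Among the named classes, the highest CPM was in melanocyte-like cells for 7 of the 10 genes in the HVP-labelled library and 8 in the Normal-labelled library, against 8.62% and 10.3% of all genes.

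**Figure D1:**
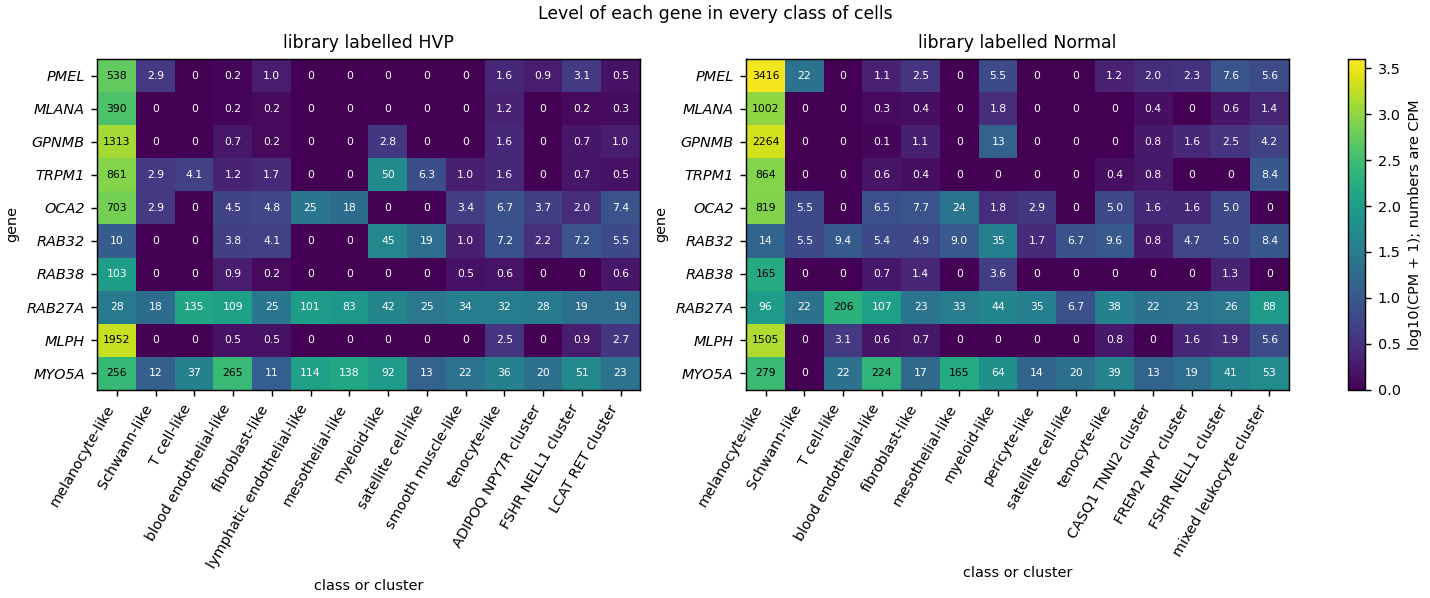
CPM of each of the 10 genes (vertical axis) in each class or cluster (horizontal axis), with the HVP-labelled library on the left and the Normal-labelled library on the right; color is log10(CPM + 1) and the printed numbers are CPM. The first column, the melanocyte-like cells, stands out for 7 genes, while the rows of *RAB32*, *RAB27A*, and *MYO5A* are spread over many classes.

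*PMEL*, the fibril protein gene, had 208 UMIs in melanocyte-like cells of the HVP-labelled library, or 538 CPM (467 to 616), and 1.06 CPM in the other cells, a ratio of 508 (355 to 745). The Normal-labelled library had 747 UMIs there, or 3416 CPM (3176 to 3670), and a ratio of 1507 (1148 to 2015) over the other cells. The gene thus stood far above the other cells in both libraries, although at different levels. Next in level was an unnamed cluster led by *FSHR* and *NELL1* in the HVP-labelled library, at 3.06 CPM from 14 UMIs. Next in the Normal-labelled library were the Schwann-like cells, at 22.1 CPM from 4 UMIs in 4 cells. Schwann cells share their origin from the neural crest with melanocytes.

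*MLANA* had 151 UMIs and 390 CPM (331 to 458) in melanocyte-like cells of the HVP-labelled library, against 13 UMIs in all other cells. The values of the Normal-labelled library were 219 UMIs, 1002 CPM (873 to 1143), and 8 UMIs elsewhere. Of the *MLANA* UMIs, 92.1% and 96.5% lay in melanocyte-like cells. Of the 13 other classes, 8 and 7 had no UMI of the gene.

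*GPNMB* is known from macrophages and osteoclasts as well as from pigment cells, so its level in the myeloid-like cells was compared with that in melanocyte-like cells. It was found mostly in melanocyte-like cells. These had 508 UMIs, 1313 CPM (1202 to 1433), in the HVP-labelled library and 495 UMIs, 2264 CPM (2069 to 2472), in the Normal-labelled library. The 105 myeloid-like cells of the HVP-labelled library held 1 UMI, 2.80 CPM (0.0708 to 15.6). The 142 of the Normal-labelled library held 7 UMIs, 12.7 CPM (5.12 to 26.2), and all 7 were in 1 cell, which also had 3 UMIs of *PMEL*. The level in melanocyte-like cells was therefore 469.5 (83.9 to 18581) and 178 (85.6 to 444) times that in myeloid-like cells.

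The myeloid-like cells carried their own genes. *CSF1R*, the receptor gene for macrophage growth factor, had 571 and 369 CPM in them, the complement gene *C1QA* 283 and 342 CPM, and the scavenger receptor gene *MARCO* 171 and 184 CPM. Of the 3 myeloid clusters in the Normal-labelled library, the one with 42 cells was led by cell-cycle genes and counted 4 of 10 myeloid markers only. When myeloid cells were taken instead as all cells with UMIs of at least 3 myeloid markers, 103 and 129 cells, *GPNMB* had 2.38 and 13.0 CPM. The level of *GPNMB* in cells with macrophage markers was thus low by both definitions. They rest on the same marker list and each counted 1 and 7 UMIs of the gene, so the second is no separate check.

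*TRPM1*, a cation channel gene transcribed together with the microRNA gene *MIR211* in mammalian melanocytes, had 333 UMIs and 861 CPM (771 to 959) in melanocyte-like cells of the HVP-labelled library. It had 189 UMIs and 864 CPM (746 to 997) in those of the Normal-labelled library. Its next class in the HVP-labelled library was the myeloid-like cells at 50.3 CPM (29.8 to 79.6). Of these 18 UMIs, 12 were in 1 cell, which had no UMI of any other of the 7 melanocyte-restricted genes, and 4 cells of 105 had the gene at all. No UMI was found in the myeloid-like cells of the Normal-labelled library, which allows up to 5.46 CPM.

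*OCA2* was the least restricted of the 7 genes. Melanocyte-like cells had 272 UMIs, 703 CPM (622 to 792), in the HVP-labelled library and 179 UMIs, 819 CPM (703 to 948), in the Normal-labelled library, 60.9% and 57.6% of all its UMIs. The other cells had 175 and 132 UMIs, giving ratios of 137 (113 to 166) and 153 (122 to 193). Mesothelial-like cells, which line the peritoneal cavity, were among the next classes in both libraries, with 17.5 CPM from 7 UMIs in 7 cells and 24.1 CPM from 8 UMIs in 5 cells. Lymphatic endothelial-like cells of the HVP-labelled library had 25.3 CPM from 4 UMIs.

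RNA released from broken melanocytes could enter any droplet, and within a library it should carry melanocyte genes in their melanocyte proportions. *CRPL1*, chosen from earlier results as the most abundant such gene, had 11143 and 10397 UMIs in melanocyte-like cells and 439 and 405 in all others. Of the 439 UMIs, 206 were in 1 tenocyte-like cell that carried UMIs of all 7 restricted genes. That cell raises every proportion given for the HVP-labelled library. It also adds to the counts set beside these proportions, with 21 UMIs of *OCA2*, 12 of *MLPH*, 6 of *MLANA*, and 3 of *RAB38*. In those proportions *OCA2* would have 10.7 and 6.97 UMIs outside melanocyte-like cells, where 175 and 132 were counted. For *MLANA* the same proportion gives 5.95 and 8.53 UMIs where 13 and 8 were counted, and for *MLPH* 29.7 and 12.8 where 42 and 20 were counted. *RAB38* had 15 and 17 UMIs outside, where the proportion gives 1.58 and 1.40. The *OCA2* UMIs outside melanocyte-like cells were thus far more than the *CRPL1* proportion gives, and those of *MLANA* and *MLPH* lay nearer to it. How many of these UMIs were free RNA was not tested.

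The paralogues *RAB32* and *RAB38* share their known role in pigment enzyme transport but differed here in where they were found. *RAB38* had 40 UMIs and 103 CPM (73.9 to 141) in melanocyte-like cells of the HVP-labelled library, and 36 UMIs and 165 CPM (115 to 228) in those of the Normal-labelled library. These were 234 (127 to 457) and 239 (131 to 454) times its level in other cells. *RAB32* had 4 UMIs and 10.3 CPM (2.82 to 26.5) in melanocyte-like cells of the HVP-labelled library, and 3 UMIs and 13.7 CPM (2.83 to 40.1) in the Normal-labelled library. Its highest level was in myeloid-like cells in both libraries, with 16 UMIs and 44.8 CPM (25.6 to 72.7) and 19 UMIs and 34.6 CPM (20.8 to 54.0). In mammals RAB32 also acts in the defence of macrophages against bacteria. The myeloid-like level was 4.33 (1.40 to 17.8) times the melanocyte-like level in the HVP-labelled library. In the Normal-labelled library it was 2.52 (0.742 to 13.3) times, an interval that includes 1. Of the 142 myeloid-like cells there, the 42 of the cluster led by cell-cycle genes had no UMI of *RAB32*. Taken the other way, the melanocyte-like level was 0.276 (0.0529 to 0.919) of the myeloid-like level at a clustering resolution of 0.5 and 0.239 (0.0443 to 0.844) with cells of 300 to 4000 genes and under 5% mitochondrial UMIs. Both of these intervals lie below 1, while that with cells of more than 500 genes, 0.349 (0.0677 to 1.14), includes it. So does that with the 10 genes left among the variable genes, 0.393 (0.0744 to 1.33).

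Of the transport complex, only the adaptor was restricted to melanocyte-like cells. *MLPH* had 755 UMIs and 1952 CPM (1815 to 2096) there in the HVP-labelled library, against 42 UMIs in all other cells, a ratio of 1580 (1158 to 2211). Melanocyte-like cells of the Normal-labelled library had 329 UMIs and 1505 CPM (1346 to 1676), against 20 UMIs elsewhere, a ratio of 1859 (1184 to 3083). It was also the gene found in most melanocyte-like cells, 92 of 93 and 60 of 62. Cells of 8 and 6 of the 13 other classes had no UMI of it.

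*MYO5A*, the motor gene, was as high in blood endothelial-like cells as in melanocyte-like cells. It had 99 UMIs and 256 CPM (208 to 312) in melanocyte-like cells of the HVP-labelled library, against 1519 UMIs and 265 CPM (252 to 279) in blood endothelial-like cells, a ratio of 0.966 (0.780 to 1.18). In the Normal-labelled library the values were 61 UMIs and 279 CPM (213 to 358) against 1579 UMIs and 224 CPM (213 to 236), a ratio of 1.24 (0.946 to 1.61). Over all other cells the melanocyte-like level was 3.62 (2.93 to 4.43) and 3.35 (2.55 to 4.32) times higher. Mesothelial-like cells followed at 138 and 165 CPM, then in the HVP-labelled library lymphatic endothelial-like cells at 114 CPM and in both libraries myeloid-like cells at 92.3 and 63.7 CPM. Fibroblast-like cells had 10.7 and 16.5 CPM, and Schwann-like cells 4 UMIs and none. The near equality with blood endothelial-like cells depended on which cells were kept. With cells of 300 to 4000 genes and under 5% mitochondrial UMIs, which left 251 and 447 blood endothelial-like cells, the ratio was 1.61 (1.19 to 2.15) in the HVP-labelled library and 1.61 (1.20 to 2.13) in the Normal-labelled library, and over all other cells it was 7.63 and 6.30. With cells of more than 500 genes it was 1.45 (1.11 to 1.86) in the Normal-labelled library.

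*RAB27A*, which in mammals also drives granule release from cytotoxic T cells, was highest in T cell-like cells in both libraries, with 33 UMIs and 135 CPM (92.8 to 189) and with 66 UMIs and 206 CPM (160 to 263). Blood endothelial-like cells came next among the named classes, at 109 CPM (101 to 118) and 107 CPM (99.8 to 115), so that the libraries differed there by less than counting error. In the HVP-labelled library this interval lies within that of T cell-like cells, so the order of these 2 classes was not resolved there. Melanocyte-like cells had 11 UMIs and 28.4 CPM (14.2 to 50.9) in the HVP-labelled library, and 21 UMIs and 96.0 CPM (59.5 to 147) in the Normal-labelled library. The melanocyte-like level was 0.211 (0.0962 to 0.428) and 0.465 (0.270 to 0.770) of that in T cell-like cells. With cells of more than 500 genes the second of these was 0.657 (0.405 to 1.02), an interval that includes 1. Blood endothelial-like cells were 3.84 (2.13 to 7.73) times above melanocyte-like cells in the HVP-labelled library but 1.12 (0.726 to 1.82) times in the Normal-labelled library. Mesothelial-like cells also differed between the libraries, at 82.5 (56.8 to 116) and 33.1 (16.5 to 59.2) CPM.

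**Figure D2:**
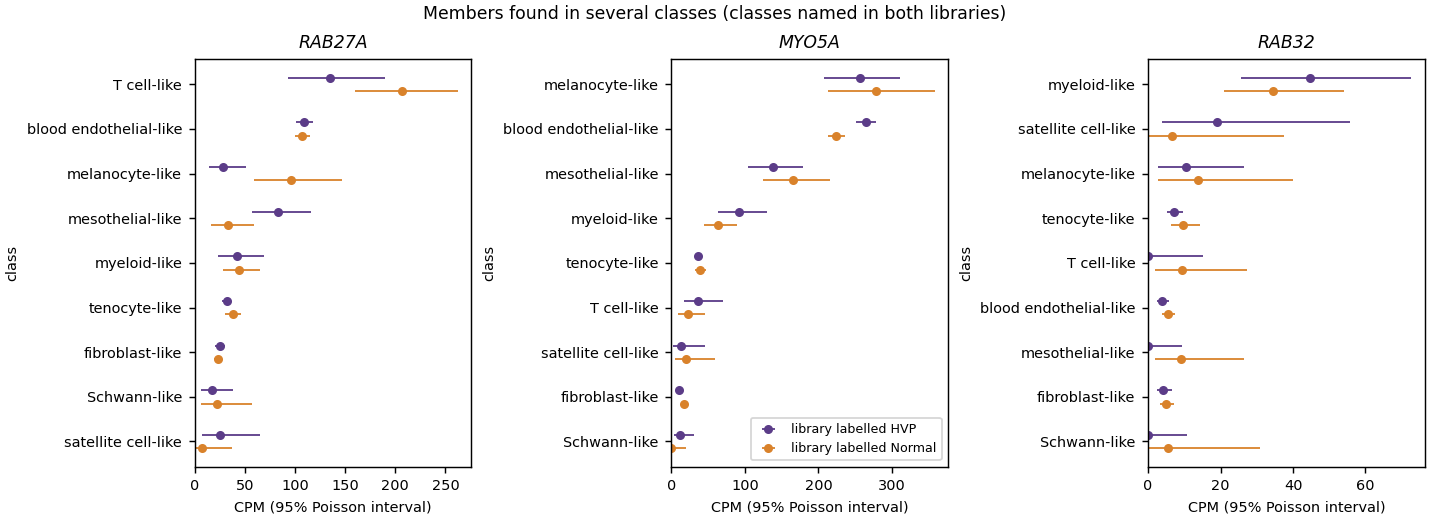
CPM (horizontal axes, linear) of *RAB27A*, *MYO5A*, and *RAB32* in the 9 classes named in both libraries (vertical axes), ordered by their mean; points are the 2 libraries and bars are 95% Poisson intervals. *RAB27A* was highest in T cell-like cells, *MYO5A* in melanocyte-like and blood endothelial-like cells together, and *RAB32* in myeloid-like cells. For *RAB27A* the order of T cell-like and blood endothelial-like cells was not resolved in the HVP-labelled library.

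The other RAB27A effectors on the list of melanosome machinery genes were then read across the classes, a grouping made after their values were seen. MYRIP, like melanophilin, links RAB27A to a myosin, and in human endothelial cells it acts on the secretory granules of von Willebrand factor. *MYRIP* had no UMI in melanocyte-like cells of either library, which allows up to 7.76 and 13.7 CPM. Blood endothelial-like cells had 1039 of its 1140 UMIs, 181 CPM (170 to 193), in the HVP-labelled library and 1227 of 1293, 174 CPM (165 to 184), in the Normal-labelled library. *MLPH* had 3 and 4 UMIs in these cells. The melanocyte-like and the blood endothelial-like cells thus both had *RAB27A* and *MYO5A*, as many other classes did, but differed in the adaptor gene. In melanocyte-like cells *RAB27A* rested on 11 and 21 UMIs.

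The synaptotagmin-like genes, whose proteins tether RAB27A-bearing granules to the plasma membrane, showed further patterns. *SYTL1* had 306 and 378 CPM in T cell-like cells and at most 10.0 CPM in every other named class of either library. *SYTL2* had 124 (115 to 133) and 64.7 (58.9 to 70.9) CPM in blood endothelial-like cells. It was highest there in the HVP-labelled library, but not resolved from the 60.2 CPM (36.7 to 92.9) of mesothelial-like cells in the Normal-labelled library. It had 38.8 and 27.4 CPM in melanocyte-like cells. *SYTL4* was highest in blood endothelial-like cells, at 30.2 and 29.8 CPM. *SYTL5* was nearly absent, with at most 4.08 CPM in any class.

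**Figure D3:**
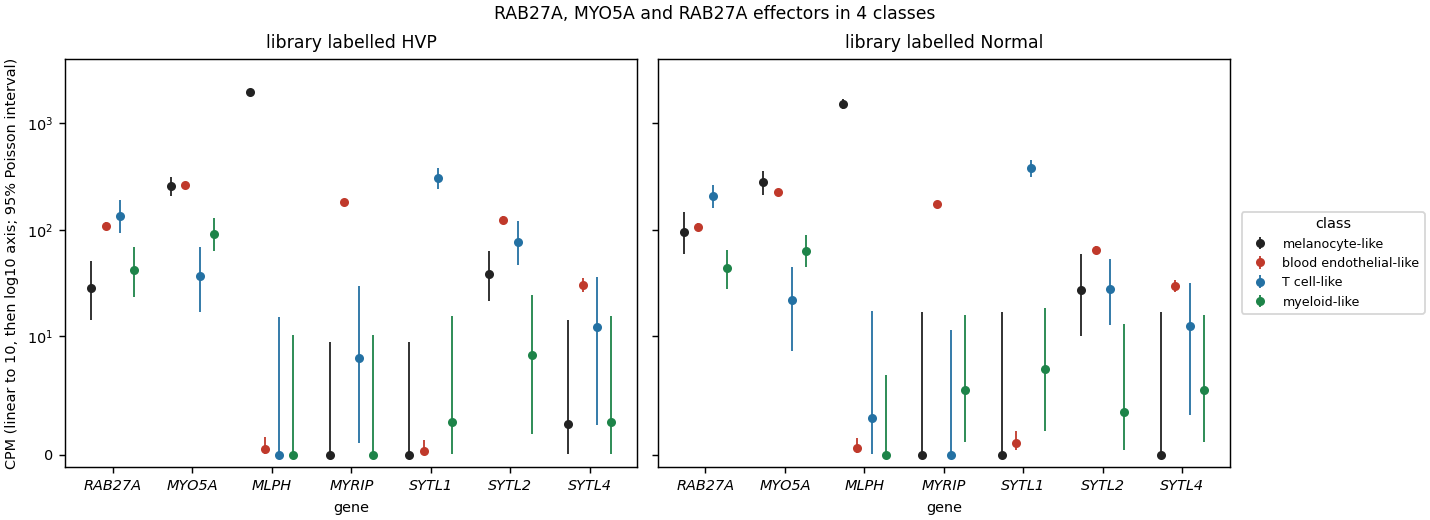
CPM (vertical axis, linear to 10 and then log10) of *RAB27A*, *MYO5A*, and the RAB27A effector genes in melanocyte-like, blood endothelial-like, T cell-like, and myeloid-like cells of each library, with 95% Poisson intervals. *MLPH* stands high in melanocyte-like cells only, *MYRIP* in blood endothelial-like cells at 181 and 174 CPM, and *SYTL1* in T cell-like cells at 306 and 378 CPM.

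Within melanocyte-like cells the spread of UMIs over cells differed between the genes. The variance over cells was 12.0 and 13.3 times the mean for *PMEL*. For *RAB32* it was 0.967 times in both libraries, a value fixed by its 4 and 3 UMIs lying 1 to a cell. For *RAB38* it was 1.54 and 0.878 times. In the HVP-labelled library *RAB32* had 4 UMIs in 4 cells, so the 5 cells with most had to hold 100% of them. The 5 cells with most *RAB27A* held 72.7% of its 11 UMIs there. Of the 7 restricted genes *PMEL* had the largest such share there, 46.6%. The lowest, median, and highest cell had 0, 0, and 38 UMIs of *PMEL*, and 52 of 93 cells had none. Corresponding values of the Normal-labelled library were 0, 9, and 68 UMIs, 4 of 62 cells had none, and the top 5 cells held 30.1%. *PMEL* was thus found in nearly every melanocyte-like cell of one library and in 41 of 93 cells of the other. The share in the top 5 cells, which also depends on how many UMIs a gene has, was lowest for *MLPH*, at 15.0% and 15.5%. *MLPH* had medians of 7 and 5 UMIs and highest cells at 27 and 13. *GPNMB* had medians of 4 and 7 UMIs and highest cells at 50 and 25. Medians were 1 and 3 UMIs for *MLANA*, 3 and 2 for *TRPM1*, 1 and 1.5 for *OCA2*, and 1 in both libraries for *MYO5A*. They were 0 for *RAB32*, *RAB38*, and *RAB27A*, so that most melanocyte-like cells had no UMI of these GTPase genes.

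To compare shares of cells at equal depth, each cell was thinned to 2000 UMIs, which left 92 and 61 melanocyte-like cells and dropped 1 in each library. *MLPH* was then found in 91.3% (83.6 to 96.2) and 91.8% (81.9 to 97.3) of melanocyte-like cells, *GPNMB* in 77.2% (67.2 to 85.3) and 90.2% (79.8 to 96.3), and *TRPM1* in 67.4% (56.8 to 76.8) and 72.1% (59.2 to 82.9). These 3 genes thus marked most cells of both libraries. *OCA2* was found in 47.8% (37.3 to 58.5) and 67.2% (54.0 to 78.7), *MLANA* in 42.4% (32.1 to 53.1) and 75.4% (62.7 to 85.5), and *PMEL* in 35.9% (26.1 to 46.5) and 85.2% (73.8 to 93.0). Intervals of *MLANA* and *PMEL* did not overlap between the libraries, a comparison for which no share of all genes is given. *MYO5A* was found in 41.3% and 44.3%, *RAB38* in 13.0% and 29.5%, *RAB27A* in 6 of 92 and 11 of 61 cells, and *RAB32* in 2.17% and 3.28%. In blood endothelial-like cells, whose median was 4061 and 4241 UMIs before thinning, the 7 restricted genes were found in at most 1.44% of cells.

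**Figure D4:**
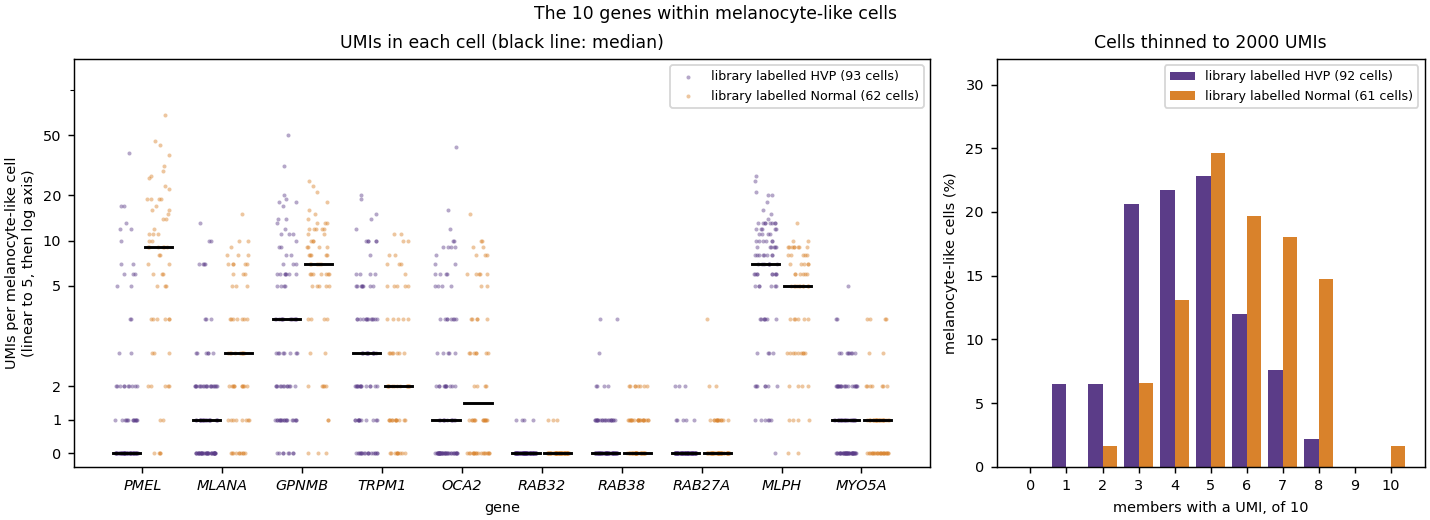
Left, UMIs of each gene (vertical axis, linear to 5 and then logarithmic) in every melanocyte-like cell, 93 cells of the HVP-labelled library and 62 of the Normal-labelled library, with the median as a black line. Right, share of melanocyte-like cells in percent by the number of the 10 genes with a UMI after thinning to 2000 UMIs; the Normal-labelled library lies further right, with a median of 6 genes against 4.

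After thinning, the median melanocyte-like cell had UMIs of 4 of the 10 genes in the HVP-labelled library (range 1 to 8) and of 6 in the Normal-labelled library (range 2 to 10). No cell lacked all 6 of *PMEL*, *MLANA*, *GPNMB*, *TRPM1*, *OCA2*, and *MLPH*, a subset formed after the values were seen. All 6 were found together in 12 of 92 cells (13.0%) in the HVP-labelled library and in 22 of 61 (36.1%) in the Normal-labelled library. The product of the 6 single shares gives 3.18 and 15.7 cells. Cells with all 6 were thus more frequent than this product in both libraries.

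In the HVP-labelled library *PMEL* was found together with the pigment enzymes more often than the product of their single shares gives. There, 14 of the 33 cells with *PMEL* had *TYRP1*, against 7 of the other 59, beside a product of 7.53. *PMEL* was in 8 of the 9 cells with *TYR* and in 11 of the 15 with *DCT*, beside 3.23 and 5.38. Across these 92 cells Pearson's r of the thinned UMIs of *PMEL* was 0.70 with *TYRP1*, 0.62 with *TYR*, and 0.45 with *DCT*. Pearson's r leans on cells with many UMIs. By ranks (Spearman) the values were 0.46, 0.49, and 0.46. In the Normal-labelled library 52 of 61 cells had *PMEL*. All 19 cells with *TYR* and 22 of the 23 with *DCT* had it there, close to the products of 16.2 and 19.6. Pearson's r of *PMEL* there was 0.58 with *TYRP1*, 0.49 with *TYR*, and 0.44 with *DCT*, and by ranks 0.53, 0.39, and 0.53. *GPNMB* was likewise in all 21 and 25 cells with *TYRP1*, beside 16.2 and 22.5, and in all 15 and 23 cells with *DCT*, beside 11.6 and 20.7. The cells of a library share 1 pool of birds, so these values describe the libraries.

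*MLPH* was in 19 of 21 and 22 of 25 cells with *TYRP1*, beside products of 19.2 and 23.0. *MYO5A* was in 7 of 15 cells with *DCT* in the HVP-labelled library and 7 of 23 in the Normal-labelled library, beside 6.20 and 10.2, and in 6 of 9 and 8 of 19 cells with *TYR*, beside 3.72 and 8.41. *RAB27A* was in 0 of 15 and 9 of 23 cells with *DCT*, beside 0.978 and 4.15, on 6 and 11 cells with *RAB27A* in all.

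The 3 genes of the transport complex, *RAB27A*, *MLPH*, and *MYO5A*, were found together in 4 of 92 and 4 of 61 melanocyte-like cells, beside products of 2.26 and 4.47, and in no cell of another class at this depth. *RAB27A* was the least often found of the 3. In blood endothelial-like cells *RAB27A*, *MYRIP*, and *MYO5A* were found together in 28 of 1053 and 31 of 1247 cells, beside 22.3 and 23.4.

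Outside the melanocyte-like cells, combinations of the 6 genes were rare. At full depth, 209 of 5773 and 184 of 5402 other cells had a UMI of at least 1 of them, 3.62% and 3.41%, and at least 3 of them were found in 1 and 2 cells. The cell of the HVP-labelled library lay in the tenocyte-like class, held 14332 UMIs, and carried UMIs of all 7 restricted genes, among them 21 of *OCA2* and 12 of *MLPH*, with 206 UMIs of *CRPL1*. The median of its class was 7310 UMIs. It was not called as a doublet, but its doublet score was in the top 5%, and the calls of this library were too few to be relied on. Whether it was more than 1 cell was not tested. Single genes in quantity without the others were also seen, such as a cell of the *FSHR* and *NELL1* cluster with 10 UMIs of *PMEL* and no other restricted gene in the Normal-labelled library.

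Between the libraries, the 10 genes of melanocyte-like cells differed most in *PMEL* by the ratio itself, although the interval of *RAB27A* reached above it. *PMEL* went from 538 CPM in the HVP-labelled library to 3416 CPM in the Normal-labelled library, a ratio of 6.35 (5.44 to 7.44), *MLANA* from 390 to 1002 CPM, 2.57 (2.08 to 3.18), and *GPNMB* from 1313 to 2264 CPM, 1.72 (1.52 to 1.95). These were 3 of the 5 structural and membrane protein genes. *RAB27A* was also higher, 3.38 (1.56 to 7.76), on 11 and 21 UMIs. *MLPH* was lower in the Normal-labelled library, 0.771 (0.675 to 0.879). Intervals included 1 for *TRPM1* at 1.00 (0.835 to 1.20), *OCA2* at 1.16 (0.959 to 1.41), *MYO5A* at 1.09 (0.779 to 1.51), *RAB38* at 1.59 (0.986 to 2.56), and *RAB32* at 1.33 (0.194 to 7.84).

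Of the 9 genes with at least 20 UMIs in melanocyte-like cells, a limit that left out *RAB32*, 4 had intervals above 1 and 1 below. Of 4585 tested genes 6.72% and 8.9% did. An interval leaves out 1 more readily the more UMIs a gene has. With 1 UMI added on each side, 3 were at least 2 times higher in the Normal-labelled library, where 3.75% of genes were, and none was at least 2 times lower, where 5.95% were. The median log2 ratio was 0.67 for the 9 genes and −0.03 for all genes tested. With 1 pool of birds per group, a difference between groups cannot be told apart from one between these 2 preparations. These directions turn around if the file names are right. Among the pigment enzymes *TYR* had a ratio of 3.94 (2.54 to 6.23), *DCT* 3.27 (2.37 to 4.56), and *TYRP1* 1.47 (1.12 to 1.91), while *SOX10* had 0.666 (0.446 to 0.975).

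*PMEL* was also higher in the other cells of the Normal-labelled library, at 2.14 (1.38 to 3.35) times, on 36 and 56 UMIs, of which 10 of the 56 were in 1 cell. The *CRPL1* proportion gives 8.19 and 29.1 of these *PMEL* UMIs, the first value being raised by the 1 tenocyte-like cell with 206 UMIs of *CRPL1*. That cell also held 5 of the 36 *PMEL* UMIs. *TRPM1* was lower in these cells, at 0.389 (0.204 to 0.701) times, on 53 and 15 UMIs, of which 12 of the 53 were in 1 cell. *MYO5A* and *RAB27A*, which other cells do express, had ratios of 1.18 (1.11 to 1.25) and 1.31 (1.22 to 1.41) there. In blood endothelial-like cells alone they were 0.847 (0.789 to 0.910) and 0.983 (0.883 to 1.09). Without the 5 cells with most UMIs of the gene in each library, a setting chosen after seeing the data, the ratio in melanocyte-like cells was 8.43 for *PMEL* and 6.70 for *RAB27A*.

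**Figure D5:**
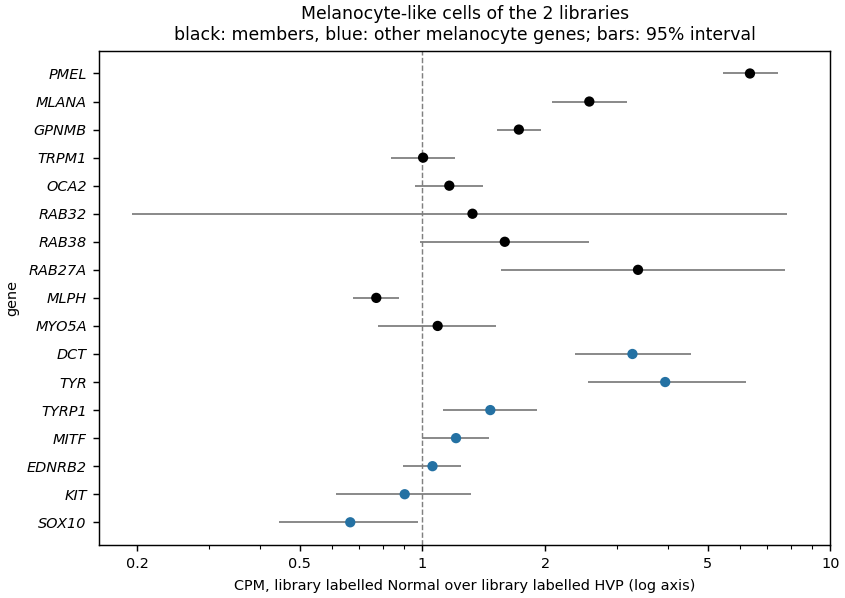
Ratio of CPM in melanocyte-like cells, Normal-labelled library over HVP-labelled library (horizontal axis, logarithmic), for the 10 genes in black and 7 other melanocyte genes in blue; bars are 95% intervals of counting error and the dashed line marks equal levels. *PMEL* lies furthest to the right at 6.35, *MLPH* and *SOX10* lie left of the line, and *TRPM1* lies on it.

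The wider melanosome machinery was read from a list of 82 genes without the 10, of which 71 were found by symbol. It covers the BLOC, AP-3, HPS, and HOPS complexes that sort cargo to the organelle, further RAB proteins and motors, PMEL-cleaving proteases, pigment enzymes, and ion transporters. Unlike the 7 restricted genes, most of it was not specific to melanocyte-like cells. With the interval rule, 11 of 65 tested genes were higher in the HVP-labelled library and 7 of 66 in the Normal-labelled library, beside 9.44% and 7.49% of all genes, and 3 were lower in each, beside 10.5% and 9.68%. The median log2 ratio was 0.28 and 0.27, against −0.21 and −0.51 over all genes.

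The enzyme genes *TYRP1*, *DCT*, and *TYR* served to name the melanocyte-like cells, so their calls were fixed by that choice. Without these, a count made after the values were seen, 8 of 62 and 4 of 63 machinery genes were higher. That was 12.9% and 6.35%, beside 9.44% and 7.49% of all genes, so the Normal-labelled count lay below the share of all genes. Of 65 machinery genes tested in both libraries, 6 were higher in both, a count for which no share of all genes is given. These were the enzyme genes *TYRP1* at 1418 and 3023 times, *DCT* at 1319 and 1568 times, and *TYR* at 303 and 866 times, then *BACE2* at 2.55 and 2.17 times, *ADAM10* at 2.44 and 2.10 times, and *LYST* at 2.24 and 2.61 times. Among the named classes *BACE2* was highest in blood endothelial-like cells (HVP-labelled) and Schwann-like cells (Normal-labelled). *LYST* was highest in smooth muscle-like and pericyte-like cells. *ADAM10* was highest in lymphatic endothelial-like cells (HVP-labelled) and melanocyte-like cells (Normal-labelled). BACE2 and ADAM10 are membrane proteases, BACE2 being known to cut PMEL in mice, and LYST shapes lysosome-related organelles. The rule with 1 UMI added on each side called 20 and 21 genes, beside 29.6% and 31.7% of all genes. It named 8 more in both libraries, *BLOC1S5*, *CLCN7*, *HPS1*, *HPS4*, *MREG*, *STX3*, *VPS16*, and *VPS39*. Of these *STX3* had no UMI and *HPS4* 1 UMI in melanocyte-like cells of either library, and intervals of *BLOC1S5*, *HPS4*, *MREG*, and *STX3* included 1 in both. *MYRIP* was lower in both libraries. The others that were lower were *RAB11A* and *ATP7A* in the HVP-labelled library and *AP3S2* and *VPS33B* in the Normal-labelled library.

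For each gene, the profile of log2(CPM + 1) over the named classes, 11 in the HVP-labelled library and 10 in the Normal-labelled library, was compared with those of 12588 genes by Pearson's r. The classes of a library share its depth and its free RNA. For the restricted genes r rests mainly on the melanocyte-like class, so a likeness among them repeats how they were grouped. The 3 closest to *PMEL* were *EDNRB2*, *MLANA*, and *DCT*, with r of at least 0.92 in both libraries. For *MLANA* they were *TYRP1*, *RAB38*, and *GPNMB*, for *GPNMB* they were *MLANA*, *TTR*, and *RAB38*, for *RAB38* they were *MLANA*, *GPNMB*, and *TYRP1*, and for *MLPH* they were *TYRP1*, *CRPL1*, and *MLANA*. *TRPM1* was closest to *TTR*, *GPNMB*, and *SLC6A15*, and *OCA2*, with lower values of 0.83 and 0.88 for the leading gene, to *TOM1*, *MLANA*, and *TYRP1*.

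*RAB27A* was closest to *PPIL2*, *ATP5L*, and *NCK1*, with r of 0.86 and 0.88 for the first, and *RAB32* to *CYB561A3*, *RRAGA*, and *ATP6V1A*, with 0.76 and 0.92. *MYO5A* was closest to the unnamed gene ENSGALG00010008581, then *TIFA* and *BAIAP2L1*, with 0.82 and 0.81 for the first.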

How the data were processed

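Per the labels and the study's methods, the deposited values are raw UMI counts per gene and barcode, which the authors obtained with Cell Ranger 7.1.0 and STAR on GRCg7b with mitochondrial genes added, without normalization. Libraries were made with 3′ chemistry, so levels of different genes are not compared with each other. Cells with more than 1000 genes were clustered per library with Seurat 5.3.0 (log normalization, 2000 variable genes without the 10 genes, 20 principal components, resolution 0.2). A marker counted at a CPM ratio of at least 2 in at least 10% of a cluster's cells, and a name needed at least 3 markers. Clusters with leading genes of another type or with mixed leukocyte markers stayed unnamed after a second split at resolution 0.5. Scrublet in scanpy 1.11.5 called 5 and 155 barcodes as doublets, 0.0699% and 2.22%, which is too few in the HVP-labelled library to be relied on. Of these, 0 and 1 were melanocyte-like, and none was removed.

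UMIs were summed per class. At the 95% level, ratios were given conditional binomial intervals, levels exact Poisson ones, and shares the Clopper-Pearson interval. A count of 0 allows up to 3 counts. Genes needed at least 20 UMIs in the kept cells, or 50 for profile likeness. For the comparison between libraries the 20 UMIs had to be in melanocyte-like cells. Named machinery genes are those called in both libraries. Likeness partners are the 3 with the highest lower r of the 2 libraries. Thinning was random without replacement. The genes, lists, and alternatives were chosen with earlier results of these data known, so no value here is independent support for those. Scaling factors came from edgeR 4.0.16 and DESeq2 1.42.0, as factors only. Ratios and calls were tested on simulated data. No sequences were used.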

Additional observations from a re-analysis of the deposited data

Results flagged for a closer look

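*RAB27A* in melanocyte-like cells had a ratio over the other cells of 0.688 (0.343 to 1.24) in the HVP-labelled library, an interval that includes 1. In the Normal-labelled library it lay above them, with 1.77 (1.09 to 2.72). The ratios lie on opposite sides of 1 on 11 and 21 UMIs, the first not resolved from 1. The difference between them was not tested.

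Barcodes with at most 1000 genes were 1291 in the HVP-labelled library and 1517 in the Normal-labelled library. They entered none of the main comparisons, and some entered the alternatives with lower gene limits. They held UMIs of all 10 genes, each above the limit that a count of 0 allows, 1.76 and 1.55 CPM. In the HVP-labelled library the level was 2.93 CPM for *PMEL*, 2.93 CPM for *MLANA*, 20.5 CPM for *GPNMB*, 16.4 CPM for *TRPM1*, and 11.7 CPM for *OCA2*. It was 28.1 CPM for *MLPH*, 3.51 CPM for *RAB38*, 9.95 CPM for *RAB32*, 86.0 CPM for *RAB27A*, and 198 CPM for *MYO5A*. In the Normal-labelled library the level was 44.4 CPM for *PMEL*, 14.4 CPM for *MLANA*, 41.3 CPM for *GPNMB*, 23.2 CPM for *TRPM1*, and 8.77 CPM for *OCA2*. It was 26.3 CPM for *MLPH*, 2.58 CPM for *RAB38*, 9.80 CPM for *RAB32*, 83.1 CPM for *RAB27A*, and 143 CPM for *MYO5A*. At least 3 of *PMEL*, *MLANA*, *GPNMB*, *TRPM1*, *OCA2*, and *MLPH* were found in 11 and 16 of these barcodes. *CRPL1* had 337 and 671 CPM in them.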

How the results depend on the processing

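The numbers of melanocyte-like cells and of the 10 genes called higher stayed within 1.5 times of the reported counts under every alternative run, and no ratio that was called changed direction. The 7 restricted genes were at least 133 times above other cells in all 9 alternatives in both libraries. With cells defined by UMIs of 3 melanocyte markers, 81 and 59 cells of which 78 and 55 lay in the clusters, the ratio was 619 and 866 for *GPNMB*, 675 and 730 for *MLPH*, 347 and 669 for *TRPM1*, and 1087 for *MLANA* in the Normal-labelled library. After thinning it was 805 for *PMEL* in the HVP-labelled library, and 1347 for *GPNMB* and 3470 for *MLPH* in the Normal-labelled library. Between the libraries *PMEL* ranged from 5.71 to 9.29. The alternative without the 5 cells with most UMIs could not give a value for *RAB32*, which had UMIs in 4 and 3 cells. The count of all genes called higher, 4553 and 4745, became 1958 and 1847 with at least 100 UMIs, 12360 and 12883 with no minimum above 1 UMI, 1343 and 1819 at a ratio of at least 4, 2055 and 1911 with the mean over cells, and 1454 and 1120 without added UMIs. The machinery count, 20 and 21, became 4 and 5 at a ratio of 4 and 11 and 7 without added UMIs, and 13 in the HVP-labelled library with the mean over cells. The median number of genes per cell became 3 and 4 with thinning to 1000 UMIs, and 7 in the Normal-labelled library without thinning. TMM and DESeq2 factors were 1.00 and 1.02. No paired analysis was possible because each group is 1 library. With 1 library per group, no error between birds or preparations is known, and the intervals cover counting error only. They leave out the spread over cells, whose variance was 12.0 and 13.3 times the mean for *PMEL*. *RAB32* and *RAB27A* rest on 3 to 21 UMIs in melanocyte-like cells. The alternatives without added UMIs and without the top 5 cells were chosen after seeing the data. The cause of these changes was not tested.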

Other observations

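Of the melanocyte markers, 3 genes of melanosome transporters and receptors had few or no UMIs. *SLC45A2*, a transporter gene behind silver plumage in chickens, had 3 UMIs in melanocyte-like cells of each library, against 5 and 1 in all other cells. *SLC24A5* had none in melanocyte-like cells of either, and *GPR143*, the gene of a melanosome receptor, had 0 UMIs in the HVP-labelled library and 6 UMIs in 4 melanocyte-like cells in the Normal-labelled library.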
